A study of Mus musculus with 12 samples.

Results

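The clustered protocadherins are cell surface adhesion proteins encoded by 3 neighbouring gene arrays, Pcdha, Pcdhb and Pcdhg. They were examined here in single-nucleus RNA sequencing of the mouse forebrain at postnatal day 1 (P1). Members were all rows of the gene list whose symbol starts with Pcdha, Pcdhb or Pcdhg followed by an isoform name, which gave 58 of 55335 rows, 14 in Pcdha, 22 in Pcdhb and 22 in Pcdhg. The study asked how a lowered dose of MYT1L, a transcription factor of neurons, affects the developing brain. The groups were 8 wild-type (WT) and 4 heterozygous (Het) mice. These numbers follow the labels and the study's methods, while 1 sentence of its results text gives them the other way round. The Het animals carried 1 copy of the S710fsX frameshift allele of Myt1l, all animals were on a C57BL/6 background, and both sexes were present (WT 1 to WT 5 and Het 1 to Het 3 male, WT 6 to WT 8 and Het 4 female). The mutation is carried in the germline, so every cell type had it. Each library came from 1 animal, so p-values between genotypes measure the spread between animals. Those between cell classes were computed within libraries and measure the spread that remains after the library is taken out. The litter of each animal was not known here. The labels give forebrain as the tissue, while the study's methods name the prefrontal cortex in 1 place, so the extent of the dissection is uncertain.

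Each isoform of the Pcdha and Pcdhg arrays has its own promoter and its own long first exon, which encodes the whole outer part of the protein and is spliced to short exons shared by all isoforms of that array. Pcdhb isoforms are mostly encoded by 1 exon and have no shared part. A neuron switches on a small, largely random choice of these promoters, with the help of the DNA-binding protein CTCF and of cohesin, and the resulting mix of surface proteins lets branches of the same neuron recognise and avoid each other. The C-type isoforms (Pcdhac1, Pcdhac2, Pcdhgc3, Pcdhgc4 and Pcdhgc5) sit at the end of their arrays and are used more evenly between cells. Pcdhgc4 is known to be needed for the survival of interneurons, and Pcdhac2 for the spacing of serotonergic axons.

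All 58 members lie on the plus strand of chromosome 18 (GRCm38, the assembly also called mm10). The Pcdha array runs from 36930184 to 37187661, the Pcdhb array from 37264938 to 37524479 and the Pcdhg array from 37661793 to 37841873. In the annotation, each Pcdha model starts at its own first exon and ends within the same shared last exon, so the models are nested, and all 14 cover the start of Pcdhac2, the last of the array. In the same way all 22 Pcdhg models cover the start of Pcdhgc5. The Pcdhb models stand side by side, except that Pcdhb21 and Pcdhb22 overlap. The gene list held 2 rows with the symbol Pcdha11, told apart here by their identifiers ENSMUSG00000007440 and ENSMUSG00000102206. All members are annotated as protein coding except Pcdhgb8, a polymorphic pseudogene.

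The libraries held 126684 barcodes, of which 98111 passed the limits on UMIs, genes and mitochondrial share that the study's methods state. The study also removed doublets with DoubletFinder, a step that was not run here. Kept nuclei numbered 4636 to 11478 per library, with 10398300 to 25602800 UMIs per library (rounded to the nearest 100), a UMI being the unique tag that stands for 1 captured RNA molecule. The median was 1751 to 2098 UMIs per nucleus. No barcode was shared between libraries. Levels below are in CPM, the UMIs of a gene per 1000000 UMIs of all genes in the same nuclei. Myt1l itself had 1271, 1380 and 1607 CPM as the lowest, median and highest of the 8 WT libraries, and 1526, 1646, 1539 and 1557 CPM in Het 1 to Het 4. The ranges overlapped, and the log2 difference of Het from WT was 0.11 ± 0.062 (SE; edgeR quasi-likelihood test, Benjamini-Hochberg adjusted p = 0.564). In excitatory nuclei Myt1l had 1492, 1721 and 1934 CPM in WT and 1954, 2051, 1957 and 1957 CPM in Het 1 to Het 4, all above the WT range, with a log2 difference of 0.19 ± 0.065 (SE; unadjusted p = 0.0081, adjusted p = 0.280). The counts do not tell the alleles apart, and whether RNA of the frameshift allele is degraded was not tested, so these levels do not check the genotype labels.

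The deposited values were not all whole numbers. They carry fractions where several gene models share a UMI, and in the Pcdha and Pcdhg arrays this was the common case. Divided entries, those over 0.001 from a whole number, held 83.2% ± 1.02 of all Pcdha UMIs (SD, n = 12 libraries) and 75.4% ± 1.54 of Pcdhg UMIs (SD, n = 12). In the Pcdhb array the share was 4.04% ± 0.983 (SD, n = 12), beside 3.94% ± 0.164 for all other genes (SD, n = 12). Over all members it was 74.8% ± 0.927 (SD, n = 12). Divided UMIs are here those in divided entries, and whole UMIs those in whole entries. A divided entry was counted in full, so it can also hold UMIs that fitted 1 model only. In all deposited barcodes, before the limits, the share was 3.73% for Pcdhb and 6.65% for other genes. The Pcdhb share ranged from 2.35% to 6.16% between libraries, and Pcdha and Pcdhg stood far above the other genes in each of the 12 libraries. By genotype, the mean Pcdha share was 82.8% in WT (range 80.9 to 83.9) and 84.1% in Het libraries (range 83.7 to 84.5). The mean Pcdhg share was 75.0% in WT and 76.4% in Het, and the mean Pcdhb share 4.18% and 3.74%. These differences were not tested.

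Some fractions recurred. Of the 585334 divided Pcdha entries, 14.3% equalled 1/14 of a UMI, 10.4% equalled 1/15, 12.6% equalled 1/16 and 9.85% equalled 1/17, within a tolerance of 0.0001. Of the 779033 divided Pcdhg entries, 44.4% equalled 1/22, and of the 961 divided Pcdhb entries 97.8% equalled 1/2. The values 14 and 22 are the numbers of isoforms in the respective arrays. Most of the divided Pcdha and Pcdhg entries held other values than these. The read-through gene models Gm42416, Gm37013 and Gm37388 start within the Pcdha array, span Pcdhb and end inside the Pcdhg array, and are annotated as protein coding. They had 220 CPM together (range 203 to 230 over the 12 libraries). Summed per nucleus, Pcdha UMIs came to a whole number in 19.8% of the 54276 nuclei that had any, and Pcdhg UMIs in 33.2% of 52804 nuclei. For Pcdhb the share was 99.7% of 10680 nuclei. With all 58 members and the 3 read-through models added together, 92.2% of 79749 nuclei had a whole sum.

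Among the Pcdha isoforms the divided share ran from 40.6% to 98.1%, with a median of 90.2%. The lowest was Pcdha11 (ENSMUSG00000102206) and the highest Pcdhac1. Pcdha11 (ENSMUSG00000102206) alone held 41.8% of the whole UMIs of the array, against 0.337% for Pcdhac1. In Pcdhg the share ran from 29.5% in Pcdhgc4 to 97.6% in Pcdhga4, with a median of 79.3%. Pcdhga12 held 14.04% and Pcdhgc4 13.3% of the whole UMIs of that array. In Pcdhb, 19 of 22 isoforms were under 10%, and the pair with overlapping models was highest, Pcdhb21 at 24.2% and Pcdhb22 at 17.2%. The other exception to the count is Pcdhb1, which had no UMIs and so no share.

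**Figure D1:**
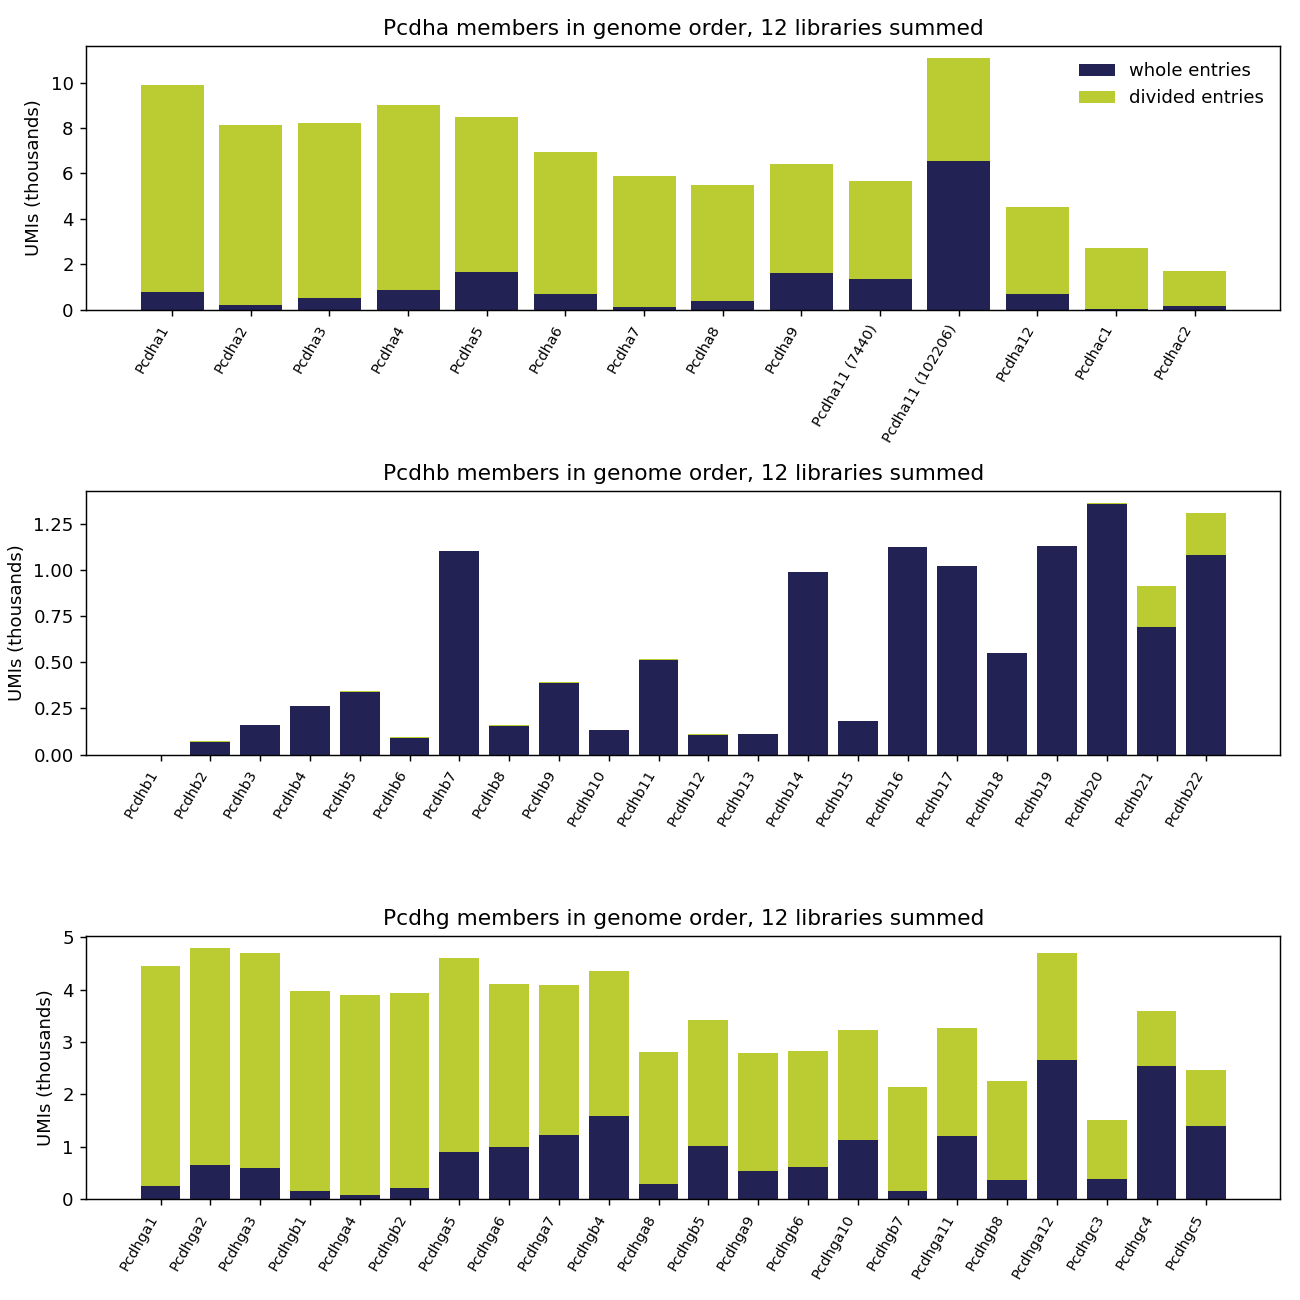
Part of each isoform's UMIs that lay in divided entries, over all kept nuclei, with the isoforms of the 3 arrays in genome order. The divided share is above 50% in most Pcdha and Pcdhg isoforms, and below 10% in Pcdhb isoforms except Pcdhb21 (24.2%) and Pcdhb22 (17.2%).

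Per isoform, the level thus holds UMIs that also fitted other isoforms. The sum over an array removes the division among its own isoforms, but not division with genes outside it. Division with the other arrays and with the read-through models was not separated here. Over all kept nuclei of the 12 libraries the Pcdha sum was 429 ± 10.9 CPM (SD, n = 12), the Pcdhg sum 353 ± 26.4 CPM (SD, n = 12) and the Pcdhb sum 54.9 ± 7.86 CPM (SD, n = 12). Whole entries alone gave 72.0 CPM for Pcdha, 86.6 CPM for Pcdhg and 52.7 CPM for Pcdhb. The order of Pcdha and Pcdhg therefore turned when divided entries were left out.

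Levels of single isoforms are not compared with each other here, since counts at the 3′ end need not grow with exon length and most Pcdha and Pcdhg UMIs were divided. Pcdhb1, the first gene of its array, had 0 UMIs in 98111 nuclei, which allows a level of up to 0.0136 CPM by counting error alone. In all deposited barcodes it had 0.0082 CPM.

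Only whole entries were counted here as showing which isoforms a nucleus held. Any Pcdha UMIs were found in 54276 nuclei, any Pcdhb UMIs in 10680 and any Pcdhg UMIs in 52804. A whole entry of at least 1 isoform was found in 6700 nuclei for Pcdha, 10276 for Pcdhb and 11215 for Pcdhg. Of these, 3.22%, 9.02% and 5.17% had whole entries of 2 or more isoforms of that array. At this depth, and with most Pcdha and Pcdhg UMIs in divided entries, the number of isoforms that a nucleus uses could not be read.

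Levels were next compared between cell classes. Nuclei were placed in a class where they had UMIs of at least 2 of its marker genes and of at most 1 marker of any other class, and no member was a marker. The rule placed 45648 nuclei in 10 classes and left 53.5% without a class. The excitatory class held 21764 nuclei, the inhibitory class 10281 and astroglia 8361. Smaller classes were the oligodendrocyte lineage with 1464 nuclei, fibroblasts with 1379, Cajal-Retzius cells with 692, endothelial cells with 643, cycling progenitors with 465, microglia with 363 and mural cells with 236. A marker held out of each gate was highest in its own gate for 15 of 15 classes and subclasses, though by little for the excitatory marker Emx1 (8.36 CPM against 8.28 in the next class). Median UMIs per nucleus differed between classes, with 2621 in excitatory, 2168 in inhibitory, 1377 in astroglial and 1126 in microglial nuclei.

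By mean CPM the Pcdha sum was highest in neurons, and the Pcdhg sum in astroglia, the oligodendrocyte lineage, fibroblasts and vessel cells. These CPM are on library totals. Vessel cells (endothelial and mural nuclei) were too sparse for the test below, in which the fibroblast Pcdhg difference depended on the setting. In excitatory nuclei the Pcdha sum was 482 ± 16.9 CPM (SD, n = 12, range 463 to 514), and in astroglia it was 151 ± 27.9 CPM (SD, n = 12, range 107 to 211). The 2 classes did not overlap in any pair of libraries. The Pcdhg sum went the other way, with 322 ± 34.8 CPM in excitatory nuclei (SD, n = 12, range 267 to 387) and 504 ± 35.6 CPM in astroglia (SD, n = 12, range 454 to 563), again without overlap. The Pcdhb sum was 58.7 ± 10.6 CPM in excitatory nuclei (SD, n = 12, range 44.1 to 77.2) and 35.9 ± 9.17 CPM in astroglia (SD, n = 12, range 22.6 to 52.7), and here the ranges overlapped.

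**Figure D2:**
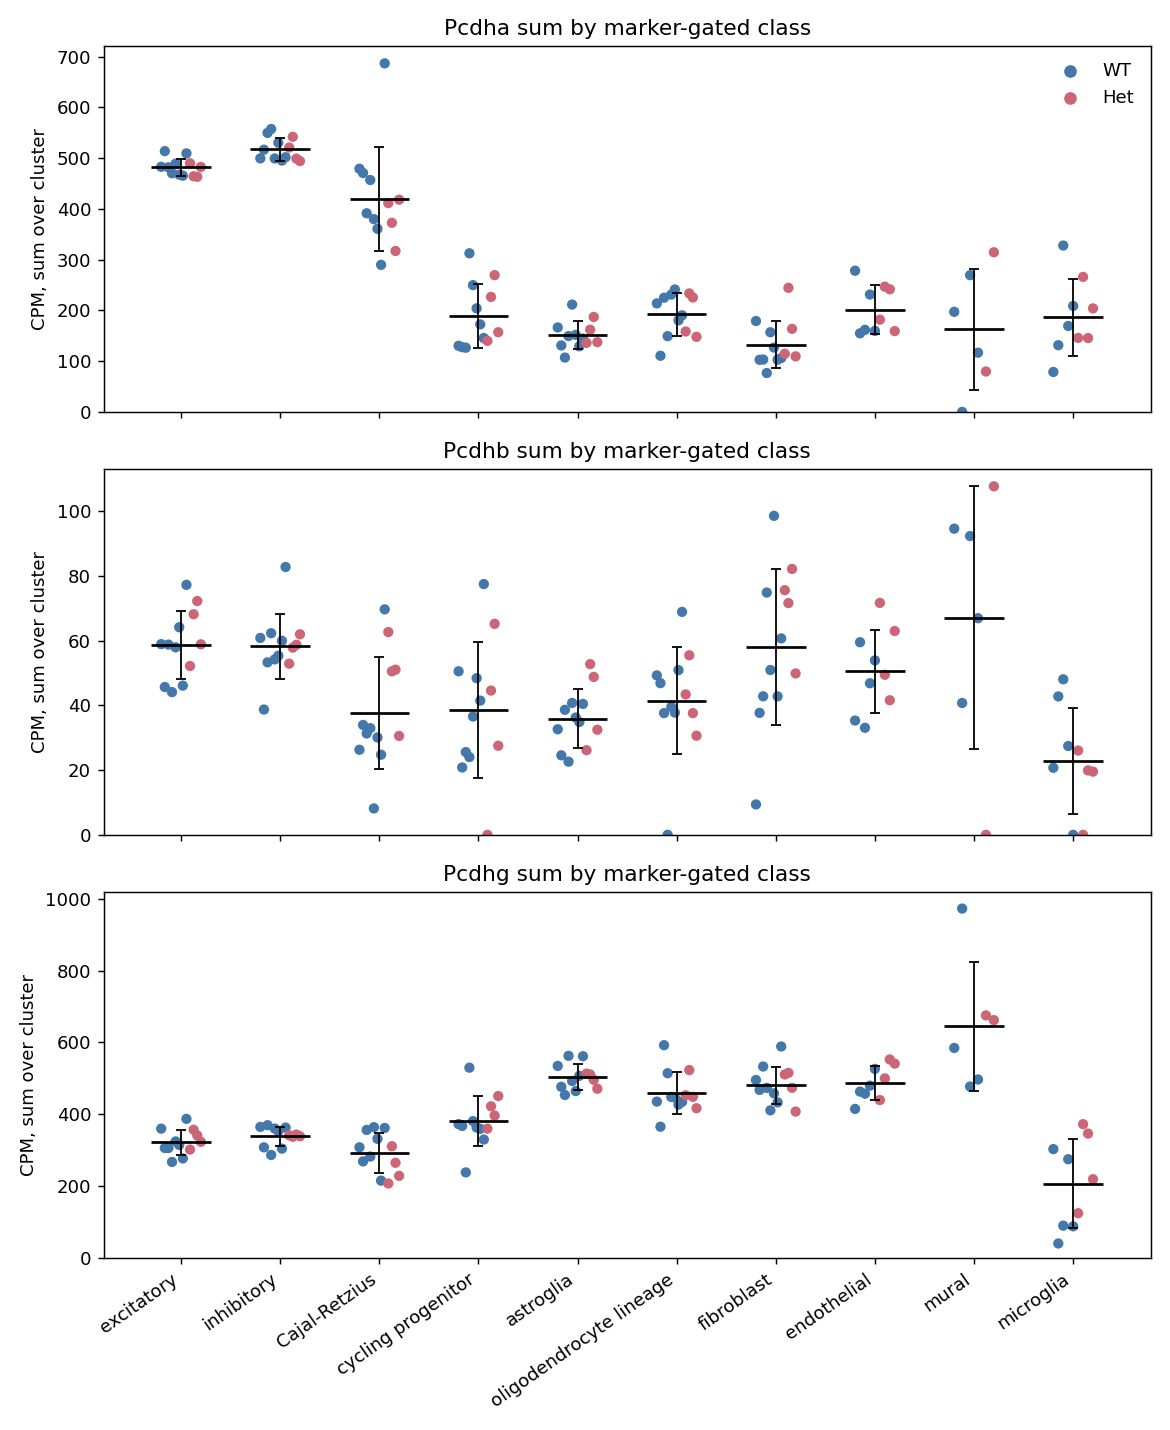
Sums of the Pcdha, Pcdhb and Pcdhg arrays (vertical axes, CPM) in each marker-gated class. Points are libraries with at least 20 nuclei of the class (WT blue, Het red), lines are means and bars SD. Pcdha is high in the neuronal classes (482 CPM in excitatory, 517 CPM in inhibitory nuclei) and low in astroglia (151 CPM), whereas Pcdhg is higher in astroglia (504 CPM) than in excitatory nuclei (322 CPM).

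The classes with at least 20 nuclei in at least 10 libraries were tested against the excitatory class within libraries. A call needed a p under 0.05 after Benjamini-Hochberg adjustment over all rows, together with a log2 difference of at least 0.2 in either direction. At this rule 35.3% of 8597 genes were called lower and 37.9% higher in astroglia than in excitatory nuclei, so a call by itself is common. In astroglia the Pcdha sum was lower by a log2 difference of -1.99 ± 0.080 (SE; edgeR quasi-likelihood test, adjusted p = 2.1e-39) and the Pcdhb sum by -0.998 ± 0.086 (SE; adjusted p = 1.4e-18). The Pcdhg sum was higher by 0.34 ± 0.056 (SE; adjusted p = 7.6e-08). By CPM, the Pcdha sum in astroglia stood at 31.4% of that in excitatory nuclei, lower in 12 of 12 libraries, and the Pcdhg sum at 156%, higher in 12 of 12. These 3 calls kept their direction and their side of the threshold under every alternative that was run.

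The oligodendrocyte lineage had a similar profile, with 192 ± 42.6 CPM for the Pcdha sum and 459 ± 58.9 CPM for the Pcdhg sum (SD, n = 12). In that class 29.2% of genes were called lower and 23.6% higher. The log2 differences from excitatory nuclei were -1.52 ± 0.096 for Pcdha, -0.59 ± 0.14 for Pcdhb and 0.34 ± 0.065 for Pcdhg (SE; edgeR quasi-likelihood adjusted p = 1.5e-25, 0.00022 and 4.1e-06). The Pcdhg call in this class was lost without the filter on low counts (0.17, adjusted p = 0.198). In that setting the median of all genes in the class moved by -0.16.

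In fibroblasts the Pcdha sum was 132 ± 46.3 CPM (SD, n = 12), with a log2 difference of -2.26 ± 0.11 (SE; edgeR quasi-likelihood adjusted p = 1.3e-34), where 32.1% of genes were called lower and 35.6% higher. Their Pcdhg sum was 481 ± 52.2 CPM (SD, n = 12), with a log2 difference of 0.20 ± 0.065 (SE; adjusted p = 0.0050). Without the filter on low counts this difference was -0.13, and the median of all genes in fibroblasts moved by -0.32. Without WT 3, WT 4, WT 6 or WT 8 the Pcdhg call was lost, and without WT 8 the difference was 0.088. Their Pcdhb sum was called lower, at -0.37 ± 0.14 (SE; adjusted p = 0.013), and the call was lost without WT 2 (-0.30) or WT 7 (-0.31). When library totals replaced the scaling factors, the Pcdhb difference was 0.015, and the median of all genes in fibroblasts moved by 0.38.

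Cycling progenitors had 188 ± 63.1 CPM for the Pcdha sum and 381 ± 69.8 CPM for the Pcdhg sum (SD, n = 12). Called genes made up 26.6% (lower) and 22.4% (higher) in this class. The Pcdha sum was lower than in excitatory nuclei by a log2 difference of -1.80 ± 0.13 (SE; edgeR quasi-likelihood adjusted p = 1.1e-22) and the Pcdhb sum by -0.99 ± 0.23 (SE; adjusted p = 0.00015). With library totals in place of the scaling factors the Pcdhb difference was -0.54 and no longer called. The direction of the Pcdhg difference depended on the setting. It was -0.20 in the test reported here, just short of the threshold on size, -0.55 without the filter on low counts and 0.27 with library totals in place of the scaling factors. The median of all genes in this class also moved, by -0.35 without the filter and by 0.46 with library totals (log2).

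Cajal-Retzius cells, early-born neurons of the cortical surface, had all 3 sums somewhat below those of excitatory nuclei. Their Pcdha sum was 419 ± 102 CPM (SD, n = 12), with a log2 difference of -0.37 ± 0.089 (SE; edgeR quasi-likelihood adjusted p = 0.00033). The Pcdhb difference was -0.74 ± 0.17 (SE; adjusted p = 0.00012) and the Pcdhg difference -0.31 ± 0.073 (SE; adjusted p = 0.00020). Here 21.6% of genes were called lower and 19.1% higher. With library totals the Pcdhg difference was -0.17 and no longer called, and the median of all genes in this class moved by 0.14.

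Inhibitory nuclei were not called apart from excitatory nuclei for any array, in a comparison where 22.1% of genes were called lower and 18.6% higher. The log2 differences were 0.0054 for Pcdha (95% interval -0.14 to 0.15), -0.12 for Pcdhb (-0.26 to 0.025) and -0.015 for Pcdhg (-0.13 to 0.096), so differences of that size remain possible. By CPM the Pcdha sum of inhibitory nuclei was 517 ± 22.8 (SD, n = 12), higher than in excitatory nuclei in 11 of 12 libraries. The classes also differed in scaling, since library totals in place of the scaling factors moved the median of all genes by 0.094 in inhibitory nuclei, 0.31 in astroglia and 0.46 in cycling progenitors (log2).

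Sums of the neuronal subclasses were compared by value, without a test between them. The Pcdha sum was 475 ± 24.5 CPM in upper-layer and 488 ± 27.2 CPM in deep-layer nuclei (SD, n = 12 each). It was 530 ± 26.8 CPM in nuclei with markers of the medial ganglionic eminence (MGE) and 566 ± 65.4 CPM in those with markers of the caudal ganglionic eminence (CGE; SD, n = 12 each). These eminences are the birthplaces of cortical interneurons. Striatal projection nuclei had 542 ± 34.5 CPM (SD, n = 11 libraries with at least 20 nuclei). The ranges of upper-layer (447 to 519) and deep-layer nuclei (452 to 536) overlapped, as did those of MGE (461 to 552) and CGE nuclei (427 to 682). The Pcdhg sum lay between 310 CPM in deep-layer and 376 CPM in CGE nuclei.

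Microglia, endothelial and mural nuclei were too sparse for the test. Microglia had a Pcdha sum of 186 ± 75.3 CPM and a Pcdhg sum of 206 ± 124 CPM (SD, n = 9 libraries). Endothelial nuclei had 202 ± 47.6 CPM for Pcdha and 486 ± 47.3 CPM for Pcdhg (SD, n = 9). Mural nuclei, of the vessel wall, had 163 ± 119 CPM and 645 ± 180 CPM (SD, n = 6). In order of mean level, the Pcdhg sum ran from mural through astroglial, endothelial, fibroblast and oligodendrocyte-lineage nuclei down to cycling progenitors, inhibitory, excitatory and Cajal-Retzius nuclei, with microglia lowest. Neighbours in that order differed by less than the larger of their SDs, except the oligodendrocyte lineage and cycling progenitors. The Pcdha order placed inhibitory, excitatory and Cajal-Retzius nuclei first and all other classes at or below 202 CPM.

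Neuronal RNA was also counted in non-neuronal nuclei. Myt1l, which is expressed by neurons, stood at 23.7% of its excitatory level in astroglia, 21.6% in the oligodendrocyte lineage, 21.97% in fibroblasts and 39.3% in microglia. The Pcdha sum stood at 31.4%, 39.9%, 27.4% and 38.7% in the same classes. In endothelial, mural and cycling progenitor nuclei Myt1l stood at 36.9%, 37.1% and 32.4%, and the Pcdha sum at 42.0%, 33.8% and 39.1%. In microglia the Pcdhg sum was at 64.1% and the Pcdhb sum at 39.4%. With whole entries only, microglia had 15.1% for Pcdha, 39.3% for Pcdhg and 40.1% for Myt1l. The Pcdha and Myt1l percentages there were thus close only with divided entries included. That 15.1% rests on few molecules in 363 nuclei. Among the Pcdha isoforms only Pcdha4 (2.37 CPM) and Pcdha11 (ENSMUSG00000102206, 10.2 CPM) had whole entries in the microglial libraries used. In astroglia whole entries gave 23.7% for Pcdha and 24.02% for Myt1l. The part of free RNA in these low levels was not tested. By CPM the Pcdhg sum was above its excitatory level in every library of astroglia, the oligodendrocyte lineage, fibroblasts, endothelial cells and mural cells. It was also above it in 10 of 12 libraries of cycling progenitors, where the fitted difference was -0.20 and turned with the scaling.

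By isoform, the same split was seen across the arrays. In astroglia 14 of 14 Pcdha isoforms had a lower mean CPM than in excitatory nuclei, from 26.6% to 42.0% of that level. In contrast 22 of 22 Pcdhg isoforms had a higher mean, from 137% to 237%. These are CPM on library totals, which moved the median of all genes up by 0.31 (log2) in astroglia. Of the 21 Pcdhb isoforms with UMIs, 19 were lower and 2 higher. Isoforms of an array share divided UMIs and do not count as separate evidence. In whole entries alone, 13 of 14 Pcdha isoforms were lower and 17 of 22 Pcdhg isoforms higher. The filter on low counts kept 19 members for the test between classes, 10 in Pcdha, 0 in Pcdhb and 9 in Pcdhg. In astroglia 10 of the 10 Pcdha isoforms were called lower, beside 35.3% of all genes. Of the 9 Pcdhg isoforms 7 were called higher, beside 37.9% of all genes. Without the filter 14 of 14 Pcdha and 14 of 21 Pcdhb isoforms were called lower (15.9% of all genes). In that setting 9 of 22 Pcdhg isoforms were called higher (14.9% of all genes).

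**Figure D3:**
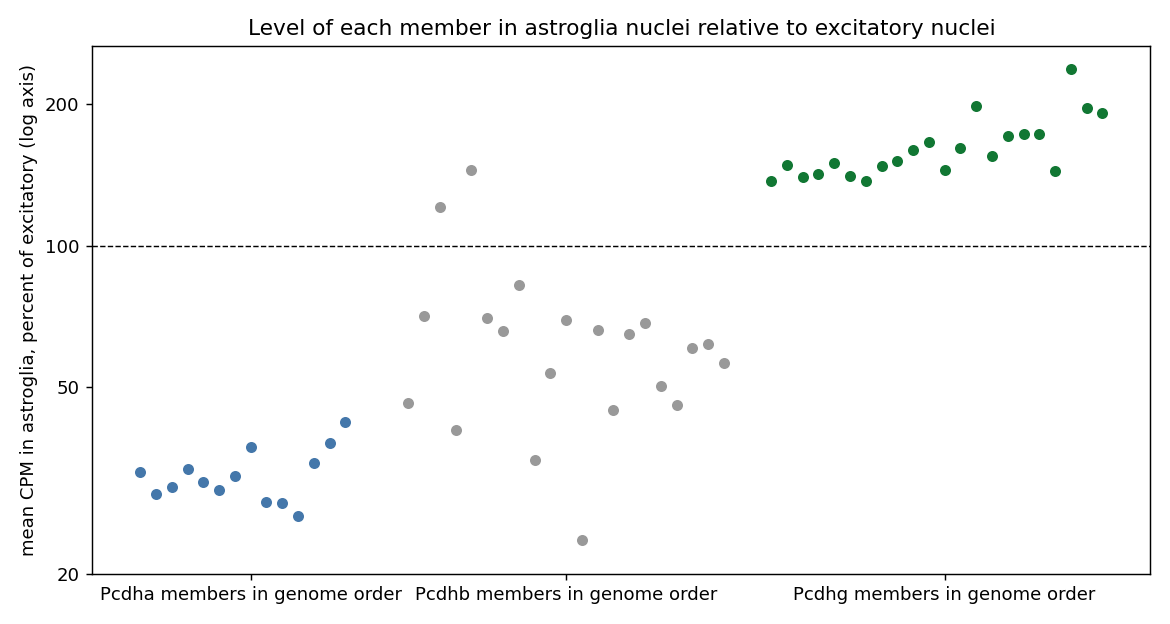
Mean level of each isoform in astroglia relative to excitatory nuclei, on a log scale and coloured by array. The 14 Pcdha isoforms lie below the line that marks equal levels and the 22 Pcdhg isoforms above it, with Pcdhgc3 farthest above at 237% of its excitatory level.

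In astroglia the mean CPM of each C-type isoform differed from excitatory nuclei in the direction of its array. Of these isoforms only Pcdhgc4 passed the filter for the test. Pcdhgc4 had 13.3 ± 1.92 CPM in excitatory (range 10.5 to 16.9), 17.5 ± 4.95 CPM in inhibitory (range 6.74 to 25.5) and 26.1 ± 4.29 CPM in astroglial nuclei (range 18.2 to 33.0; SD, n = 12 each). The excitatory and astroglial ranges did not overlap, and the inhibitory range overlapped both. The log2 difference from excitatory nuclei was 0.69 ± 0.12 in astroglia (SE; edgeR quasi-likelihood adjusted p = 1.5e-07), 0.69 ± 0.22 in the oligodendrocyte lineage (SE; adjusted p = 0.0050) and 0.32 ± 0.11 in inhibitory nuclei (SE; adjusted p = 0.013), where the Pcdhg sum was not called. In fibroblasts it was -0.18 ± 0.27 (SE; adjusted p = 0.547), against 0.20 for the Pcdhg sum. It was the only one of 19 tested members called in inhibitory nuclei, where 18.6% of all genes were called higher. As the isoform with the smallest divided share in its array, its level rests mostly on whole UMIs, and whole entries gave 9.01, 13.2 and 18.4 CPM in the same 3 classes.

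Pcdhgc3 rose from 5.67 ± 1.21 CPM in excitatory nuclei (range 4.13 to 8.08) to 13.5 ± 3.27 CPM in astroglia (range 7.59 to 18.1; SD, n = 12 each), higher in 12 of 12 libraries by value, without a test because its counts were too low for the filter. Pcdhgc5 had 9.57 ± 2.07 CPM in excitatory nuclei and 18.3 ± 3.43 CPM in astroglia (SD, n = 12 each), higher in 11 of 12 libraries, also without a test. The Pcdha C-types went down, with Pcdhac1 at 14.004 ± 0.81 CPM in excitatory nuclei and 5.32 ± 1.38 CPM in astroglia, and Pcdhac2 at 8.99 ± 0.97 and 3.78 ± 0.73 CPM (SD, n = 12 each). Whole entries of Pcdhac1 were at 0 in all 12 astroglial libraries and averaged 0.20 CPM in excitatory nuclei, so nearly all of its level came from divided UMIs. Neither passed the filter.

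Of the remaining named isoforms, Pcdha1 had 49.5 ± 3.74 CPM in excitatory and 16.3 ± 3.91 CPM in astroglial nuclei, and Pcdha11 (ENSMUSG00000102206) had 59.0 ± 7.59 and 15.7 ± 3.20 CPM (SD, n = 12 each). Their log2 differences were -1.88 ± 0.079 and -2.22 ± 0.10 (SE; edgeR quasi-likelihood adjusted p = 7.5e-38 and 2.1e-34). The first isoforms of the Pcdhg array, Pcdhga1, Pcdhga2 and Pcdhga3, had 18.9 ± 1.93, 20.3 ± 2.14 and 20.1 ± 2.68 CPM in excitatory nuclei, and 25.9 ± 1.67, 30.2 ± 5.07 and 28.2 ± 4.65 CPM in astroglia (SD, n = 12). The log2 difference was 0.23 ± 0.071 for Pcdhga2 (SE; edgeR quasi-likelihood adjusted p = 0.013). For Pcdhga3 it was 0.17 ± 0.081 (SE; adjusted p = 0.061) and not called. Pcdhga1 did not pass the filter. Pcdhb20 and Pcdhb22 had 6.70 ± 1.67 and 6.24 ± 1.403 CPM in excitatory nuclei and 4.05 ± 2.44 and 3.51 ± 1.38 CPM in astroglia (SD, n = 12), with overlapping ranges.

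WT and Het libraries were then compared, the contrast that the study was designed for. None of the 3 array sums was called between genotypes. Over all kept nuclei the Pcdha sum was 405, 431 and 443 CPM as the lowest, median and highest of the 8 WT libraries. It was 420, 438, 417 and 428 CPM in Het 1 to Het 4, all within the WT range. The low end of that range was WT 7 alone. The next WT library had 426 CPM, and Het 1 and Het 3 lay below it. The log2 difference of Het from WT was -0.045 ± 0.041 (SE; 95% interval -0.13 to 0.042; edgeR quasi-likelihood adjusted p = 0.756). In sums over all nuclei, fewer cells of a type and less RNA per cell cannot be told apart.

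The Pcdhb sum was 44.3, 52.2 and 71.5 CPM (lowest, median and highest) in WT and 51.3, 59.9, 62.4 and 57.4 CPM in Het 1 to Het 4. Again every Het library lay within the WT range, and the log2 difference was 0.087 ± 0.10 (SE; 95% interval -0.14 to 0.31; edgeR quasi-likelihood adjusted p = 0.826). Without WT 8, the library at 71.5 CPM, it was 0.15 (adjusted p = 0.482). The Pcdhg sum was 308, 344 and 401 CPM in WT and 338, 378, 375 and 342 CPM in the 4 Het libraries, with a log2 difference of 0.0055 ± 0.063 (SE; 95% interval -0.13 to 0.14; adjusted p = 0.990). With whole entries only, the Pcdha difference was -0.16 ± 0.042 (SE; unadjusted p = 0.0019, adjusted p = 0.347), outside the interval above and still uncalled.

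**Figure D4:**
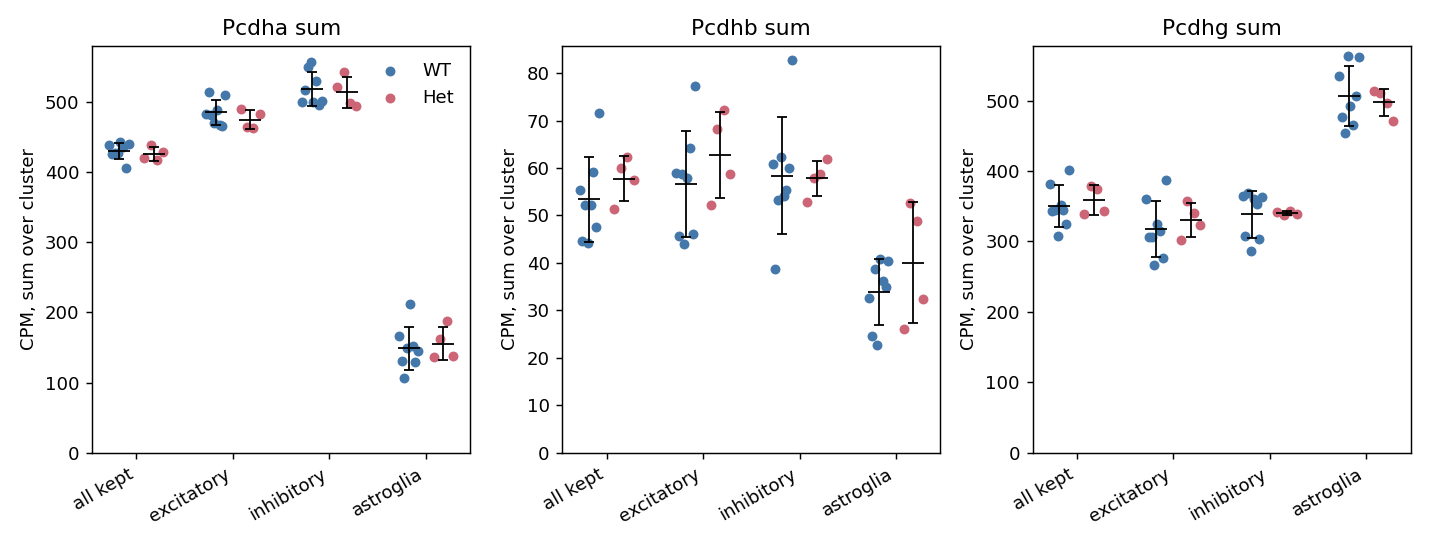
Sums of the 3 arrays (vertical axes, CPM) in the WT and Het libraries, for sets of nuclei that include all kept, excitatory and inhibitory nuclei. Points are animals, lines are means and bars SD, and over all kept nuclei every Het library lies within the WT range for each array (405 to 443 CPM for Pcdha). For Pcdha the low end of 405 CPM is WT 7 alone.

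In excitatory nuclei the Pcdha sum was 465, 482 and 514 CPM in WT (lowest, median and highest) and 490, 464, 463 and 483 CPM in Het 1 to Het 4. Het 2 and Het 3 lay just below the WT range and the others within it. The log2 differences in these nuclei were -0.038 ± 0.054 for Pcdha, 0.15 ± 0.12 for Pcdhb and 0.052 ± 0.083 for Pcdhg (SE; edgeR quasi-likelihood adjusted p = 0.844, 0.684 and 0.863). In inhibitory nuclei they were -0.015 ± 0.069, -0.012 ± 0.12 and -0.00032 ± 0.076 (SE; adjusted p of at least 0.995). The 95% interval for Pcdhb was the widest, from -0.11 to 0.42 in excitatory and from -0.27 to 0.25 in inhibitory nuclei.

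Upper-layer, deep-layer, MGE and CGE nuclei and astroglia were also tested, and no sum was called in them. The Pcdha differences over the 8 sets lay between -0.11 (deep-layer) and 0.044 (astroglia), and the Pcdhg differences between -0.059 and 0.052. Pcdhb in CGE nuclei had the lowest value, -0.59 ± 0.27 (SE; 95% interval -1.14 to -0.032; edgeR quasi-likelihood unadjusted p = 0.039, adjusted p = 0.970). It rested on few molecules, with 6 to 22 Pcdhb UMIs in each WT and 5 to 16 in each Het library. Striatal projection nuclei were not tested because WT 4 held 7 of them.

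No isoform was called between genotypes. Of the 58 members, 54 passed the filter over all kept nuclei, and the other 4 were Pcdhb isoforms. None was called, in a comparison where edgeR called 0% of 20347 genes, and the smallest member adjusted p was 0.502. At an unadjusted p under 0.05 there were 0 members of 54, beside 10.1% of all genes. DESeq2, with the same filter, called 0 members and 20 of 20347 genes. Of the 54, 27 had a positive and 27 a negative log2 difference, with a median of 0.0014 beside 0.00085 over all genes tested. By array, 13 of 14 Pcdha isoforms had a negative difference (median -0.043), 13 of 18 Pcdhb isoforms a positive one (median 0.085) and 13 of 22 Pcdhg isoforms a positive one (median 0.0048). The Pcdha isoforms share divided UMIs, so their signs are not independent.

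In excitatory nuclei 47 members were tested and 0 called, beside 0.00713% of genes called, with 0 members at an unadjusted p under 0.05 beside 11.7% of all genes. In inhibitory nuclei 44 were tested and 0 called, beside 0% of genes, and 1 member (2.27%) had an unadjusted p under 0.05 beside 7.68% of all genes. That was Pcdhb20, with a log2 difference of 0.68 ± 0.24 (SE; edgeR quasi-likelihood adjusted p = 0.599). DESeq2, with the same filter, called 0 members in either class, beside 39 of 14020 genes in excitatory and 4 of 11568 in inhibitory nuclei. In the smaller sets 0 members were called either, of 42 tested in upper-layer nuclei (0% of genes called), 32 in deep-layer (0.227%), 21 in MGE (0.0145%), 5 in CGE (0%) and 34 in astroglial nuclei (0%). An unadjusted p under 0.05 was found there for Pcdhb17 in upper-layer nuclei (0.66, adjusted p = 0.424) and Pcdha11 (ENSMUSG00000007440) in deep-layer nuclei (-0.43, adjusted p = 0.258). These were 2.38% and 3.13% of the members tested, beside 9.33% and 10.4% of all genes in the same sets. These 3 isoforms were named after their values were seen.

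Levels of the named isoforms overlapped between genotypes. Pcdhgc4 had 13.7, 15.9 and 20.5 CPM in WT (lowest, median and highest) and 15.0 to 16.3 CPM in Het libraries. Pcdhgc3 had 5.03, 6.38 and 8.83 CPM in WT and 6.41 to 8.67 CPM in Het, and Pcdhgc5 had 7.92, 11.4 and 14.6 CPM in WT and 10.5 to 11.8 CPM in Het. Pcdhac1 had 11.4, 12.4 and 12.9 CPM in WT and 11.8 to 13.6 CPM in Het, and Pcdhac2 had 6.63, 7.61 and 8.69 CPM in WT and 7.70 to 8.14 CPM in Het. Pcdha1 had a mean of 45.3 ± 2.83 CPM over the 8 WT and 44.5 ± 1.02 CPM over the 4 Het libraries, and Pcdha11 (ENSMUSG00000102206) had 50.5 ± 2.53 and 50.03 ± 1.504 CPM (SD).

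Genes that act on or with the clustered protocadherins were taken from 3 lists, given by counts. The list for promoter choice and looping holds 14 genes (among them Ctcf, the cohesin genes Rad21, Smc1a, Smc3, Stag1 and Stag2, the cohesin loader Nipbl, and the silencers Setdb1 and Smchd1). All 14 were tested over all kept nuclei and 0 were called by edgeR, while 2 were higher and 0 lower at an unadjusted p under 0.05, beside 10.1% of all genes in either direction. The median log2 difference was 0.053, beside 0.00085 over all genes. Nipbl had 331, 358 and 392 CPM in WT (lowest, median and highest) and 408, 400, 413 and 386 CPM in Het 1 to Het 4, with a log2 difference of 0.11 ± 0.047 (SE; edgeR quasi-likelihood adjusted p = 0.443). Only Het 4 lay within the WT range. Smc1a and Stag2 had differences of 0.14 ± 0.066 and 0.12 ± 0.064 (SE; adjusted p = 0.488 and 0.529). In excitatory nuclei 3 of 14 list genes were higher and 0 lower at an unadjusted p under 0.05 (median 0.063), beside 11.7% of all genes. In inhibitory nuclei 0 were higher and 0 lower (median 0.025), beside 7.68%. In both classes 0 were called.

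The list of partners and signalling holds 14 genes, among them the focal adhesion kinases Ptk2 and Ptk2b, the neuroligins Nlgn1 and Nlgn2, and the WAVE complex genes Wasf1, Cyfip1, Cyfip2, Nckap1, Abi1 and Abi2, which link protocadherins to actin. Of 14 tested, 0 were called by edgeR, and 2 were lower and 0 higher at an unadjusted p under 0.05, against the same 10.1% of all genes. The median was -0.043. In excitatory nuclei 1 of 13 was lower and 0 higher at that unadjusted p (median -0.055), beside 11.7% of all genes, and in inhibitory nuclei 2 of 13 were lower and 3 higher (median 0.0051), beside 7.68%. Nlgn1 had 3828, 4047 and 4526 CPM in WT and 3834, 3854, 3711 and 3714 CPM in the Het libraries, with a log2 difference of -0.15 ± 0.051 (SE; edgeR quasi-likelihood adjusted p = 0.378). Wasf1 and Cyfip2 had differences of -0.16 ± 0.060 and -0.10 ± 0.052 (SE; adjusted p = 0.404 and 0.525).

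The last list holds 10 non-clustered protocadherins, single genes outside the arrays that encode related adhesion proteins. Of 10 tested, 0 were called by edgeR, and 3 were lower and 0 higher at an unadjusted p under 0.05, where 10.1% of all genes were (1142 of 20347 lower). The median was -0.12. Pcdh10 had 118, 135 and 151 CPM in WT and 115, 101, 91.0 and 131 CPM in Het 1 to Het 4, with a log2 difference of -0.31 ± 0.083 (SE; edgeR quasi-likelihood unadjusted p = 0.0019, adjusted p = 0.359). Het 1, Het 2 and Het 3 lay below the WT range and Het 4 within it. Pcdh17 and Pcdh9 had differences of -0.26 ± 0.078 and -0.18 ± 0.078 (SE; adjusted p = 0.359 and 0.452). None of the 3 passed the correction. In excitatory nuclei 3 of 10 list genes were lower and 0 higher at an unadjusted p under 0.05 (median -0.087), beside 11.7% of all genes. In inhibitory nuclei 1 of 9 was lower and 0 higher (median -0.024), beside 7.68%. In both classes 0 were called.

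Between cell classes many genes of these lists were called, as were many genes in general. In astroglia against excitatory nuclei, 9 of 13 tested genes of the promoter list were called, 7 higher and 2 lower, with a median of 0.28 beside 0.029 over all genes. Of the partner list 10 of 13 were called, 3 higher and 7 lower, and of the non-clustered protocadherins 6 of 7, 2 higher and 4 lower. Over all genes 37.9% were called higher and 35.3% lower in astroglia, so nothing particular to the lists is read from these counts. In inhibitory nuclei 5 of 7 tested non-clustered protocadherins were called, 4 higher and 1 lower, beside 18.6% of all genes called higher and 22.1% lower.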

How the data were processed

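Nuclei of P1 forebrain had been barcoded by split pooling and counted at the 3′ end of polyadenylated RNA. The authors ran the ScaleRna workflow on mm10 and deposited expected counts of UMIs, unnormalized, with fractions where several genes share a UMI. The sources used here do not state the rule of division or the annotation. The submitters' processing notes name Seurat 4.3.0 and mm10.

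The design had assumed whole counts, so sums over nuclei were rounded to whole numbers before the tests. Barcodes were kept within the limits in the study's methods, namely from 800 to 6000 UMIs, from 300 to 3000 genes, a mitochondrial share up to 1% and log genes over log UMIs at or above 0.9. The authors had removed doublets with DoubletFinder before these limits, and no doublet caller was run here. The UMI ceiling applies, and 8595 nuclei with at least 2 markers of more than 1 class stayed without a class. No free RNA was subtracted. The deposited matrices carry no cell annotation used here, so the classes were rebuilt from markers.

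UMIs were summed per library over all kept nuclei and per class, and the 3 array sums were added as rows beside the genes. Het and WT were compared with edgeR 4.0.16 in R 4.3.3 (quasi-likelihood test, TMM scaling, filterByExpr, genotype as the only term), where every library had at least 20 nuclei. Classes were compared with the library as a block. P-values were adjusted by Benjamini-Hochberg over all rows of a comparison, and a call also needed a log2 difference of at least 0.2. DESeq2 1.42.0, other scaling, no filter, sex as a covariate, a replicate block, male libraries only, each library left out, all barcodes, whole entries only, at least 3 gate markers and overlapping genes added to the sums were the alternatives. The scripts were tested on simulated data. In the edgeR check, 99 of 100 genes changed by a log2 difference of 1 were called, and 50 of 100 changed by 0.5. There were 8 false calls. The spread in that check was assumed, so it does not give the power in these data. Positions come from GENCODE M21 (GRCm38), which matched 54587 of 55335 identifiers and 58 of 58 members. Counting intervals cover counting error only.

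Members, gene lists and tests were chosen with earlier results of these data known. Named genes are the 5 C-type isoforms, the first and last isoform of each array and its 2 with the highest level (a rule of choice that divided UMIs affect), members called in Het against WT (0), Myt1l, and the 3 genes of each pathway list with the smallest p.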

Additional observations from a re-analysis of the deposited data

Results flagged for a closer look

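One library stood apart in 1 array sum. Over all kept nuclei the Pcdha sum of WT 7 was 405 CPM, the lowest of the 8 WT libraries, and the nearest other library had 426 CPM, so that the gap took up 0.567 of the whole WT range of 405 to 443 CPM. The limit for 8 samples is 0.526. Of 56 groups of sums examined, this was the 1 that passed it, and chance alone passes about 1 in 20. Without WT 7 the Pcdha difference of Het from WT stayed uncalled.

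The 3 read-through gene models that span the arrays, which belong to no array sum, had a mean of 220 CPM over the 12 libraries (203 to 230). Almost all of it was divided, since whole entries of the 3 models came to 2.20 CPM.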

How the results depend on the processing

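The 9 Het against WT sums of all, excitatory and inhibitory nuclei were uncalled under all alternatives, with adjusted p between 0.347 and 1.00, and members called stayed at 0 under each. With whole entries only the Pcdha sum was -0.16 over all and -0.14 in excitatory nuclei. The Pcdhb sum kept its sign there but ranged from 0.022 (overlapping genes added) to 0.18 (males) over all and from 0.078 to 0.25 in excitatory nuclei under the same settings. With 1 library left out it was 0.049 (without Het 3) to 0.15 (without WT 8) over all, and 0.082 (without Het 3) to 0.24 (without Het 1) in excitatory nuclei. Differences near 0 changed sign. The Pcdhg sum over all nuclei was -0.083 with whole entries only and from -0.026 to 0.038 with 1 library left out. In inhibitory nuclei the Pcdha sum was 0.0059 without the filter on low counts, 0.021 with whole entries, 0.047 with at least 3 gate markers and -0.046 to 0.012 with 1 library left out. The Pcdhb sum there was 0.0043 without the filter, 0.024 with sex as a covariate, 0.066 in males, 0.026 in all barcodes and 0.032 with at least 3 gate markers (left out -0.075 to 0.071), and the Pcdhg sum 0.018 without the filter, 0.010 in all barcodes and 0.081 with at least 3 markers (left out -0.028 to 0.026). The labels number replicates within sex, and as 1 of 4 same-numbered pairs deviated together (r from -0.15 to 0.22), the numbers were not taken as pairs. With a replicate block the Pcdhg sum over all nuclei was -0.0074 and the inhibitory Pcdhb sum 0.14, and genes called were 0, 2 and 0 in all, excitatory and inhibitory nuclei against 0, 1 and 0 without it, with 0 members called in each. DESeq2 called 20, 39 and 4 genes there. Without Het 4 edgeR called 53 and 332 genes in all and excitatory nuclei, and without the filter 181 in inhibitory nuclei.

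Between classes, the Pcdha sum of inhibitory nuclei was -0.065 with at least 3 markers, -0.020 in all barcodes, -0.022 without the filter and -0.014 to 0.015 with 1 library left out, and their Pcdhg sum 0.0050 with whole entries. Library totals in place of TMM factors, an alternative chosen after seeing the data, gave 0.080 for that Pcdhg sum, -0.17 for Pcdhg in Cajal-Retzius cells, -0.54 for Pcdhb and 0.27 for Pcdhg in cycling progenitors, and 0.015 for Pcdhb in fibroblasts. No filter gave -0.55 for Pcdhg in cycling progenitors, 0.17 in the oligodendrocyte lineage and -0.13 in fibroblasts. All barcodes gave -0.22 for Pcdhg in cycling progenitors and 0.17 in fibroblasts, and whole entries 0.22 in fibroblasts. With 1 library left out, Pcdhg in cycling progenitors was -0.27 (without WT 4) to -0.16 and called without WT 4, WT 6 or Het 4. Pcdhb in fibroblasts was -0.51 to -0.30 and Pcdhg 0.088 to 0.25. The median of all genes moved too. With library totals it moved by 0.14 in Cajal-Retzius cells, 0.46 in cycling progenitors and 0.38 in fibroblasts (log2). Without the filter it moved by -0.35 in cycling progenitors, -0.16 in the oligodendrocyte lineage and -0.32 in fibroblasts. The cause of the changes in the sums was not tested. Gates of at least 3 markers left too few cycling progenitors for a value. Adding overlapping genes to the sums, in excitatory and inhibitory nuclei also chosen after seeing the data, changed no call.

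The divided shares in all barcodes were 79.7% for Pcdha, 73.4% for Pcdhg, 72.1% for all members, 3.73% for Pcdhb and 6.65% for other genes. As shares of entries in kept nuclei they were 98.8%, 98.5%, 97.8%, 7.97% and 5.76% in the same order. Depth limits single Pcdhb isoforms, with a median of 1.65 CPM, and divided UMIs limit those of Pcdha and Pcdhg.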
